A study of Homo sapiens with 12 samples.

Results

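The aminoacyl-tRNA synthetase genes were followed through RNA sequencing of A549 cells, an established human lung carcinoma line. The set held 36 genes picked by name from the 58676 genes of the deposited table: 20 that encode enzymes of the cytosol and 16, with the suffix 2, that encode enzymes of the mitochondrion. Older gene symbols are used as in that table (GARS for the current GARS1, and so on). The groups were a control line (labelled Control1) and the lines NFE2L1 KO1 and NFE2L1 KO2, each given DMSO vehicle or bortezomib at 200 nM for 4 h. Each of the 6 groups had 2 libraries, 12 in all, and the labels do not say how the knockout lines were made or whether replicates came from separate cultures, so p-values measure only the spread between these libraries. Bortezomib blocks the proteasome, and NFE2L1 is a transcription factor that is itself degraded by the proteasome and switches on proteasome subunit genes when it escapes degradation.

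Each synthetase joins 1 amino acid to the tRNAs that decode it, which is the step that fixes the genetic code. Cytosolic and mitochondrial ribosomes draw on separate enzymes, all encoded in the nucleus, and for most amino acids a different gene serves each compartment. GARS and KARS are exceptions, since each encodes both a cytosolic and a mitochondrial form, and EPRS carries the glutamate and proline activities of the cytosol in a single chain. Many cytosolic synthetase genes are known targets of ATF4, the transcription factor of the integrated stress response, which is translated when eIF2alpha is phosphorylated and induces genes of amino acid supply and tRNA charging.

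Sequencing depth was 13211608 to 23819258 reads assigned to genes per library. Levels are given as FPKM, read fragments scaled to gene length in kilobases and to library depth, so they can be compared between genes. Libraries whose titles end in R2 stood apart from the other 6: genes of the mitochondrial genome took 12.3% to 19.3% of their reads, against 5.44% to 6.80% in the libraries titled R1 or left unnumbered (the 2 control libraries). Among the synthetases, 16 of 20 cytosolic and 8 of 16 mitochondrial genes were lower in the R2 library in all 6 groups, while QARS, AARS2, SARS2 and VARS2 were higher there in all 6. NFE2L1 itself stood at 9.82% to 11.6% of its control level in KO1 and 22.3% to 25.6% in KO2 in vehicle, and at 18.9% to 24.8% and 26.8% to 33.7% in bortezomib, with R2 libraries set against R2 and R1 libraries against the unnumbered control libraries. The epithelial keratins KRT8 and KRT18 were at 126 to 703 and 112 to 586 FPKM, EPCAM and CDH1 were at 1.25 to 10.6 and 1.42 to 9.53, and CDKN2A, a gene deleted in A549, was at 0 in all 12 libraries. Of 9 markers of leukocytes, endothelium and fibroblasts, 7 stayed at or under 0.408 FPKM in every library. The others were called for bortezomib (limma, described below): the collagen gene COL1A1 was at 1.42 to 5.18 FPKM in vehicle and 6.10 to 23.3 in bortezomib (adjusted p = 0.00623), and the monocyte gene CD14 at 0.714 to 3.63 FPKM in vehicle and 0 to 0.815 in bortezomib (adjusted p = 0.00527). CD14 had a mean of 1.40 FPKM and a bortezomib median of 0.350. It passed the filter on low values described below only because of its vehicle values, so its call is not independent of that filter. Of the epithelial markers EPCAM was called higher (0.93 on the log2(FPKM + 1) scale, adjusted p = 0.0353), CDH1 was lower in all 6 pairs and passed only with the replicate block described below (-0.44, adjusted p = 0.00319), and KRT8 and KRT18 passed in neither fit (-0.13 and -0.05). Their part in the results was not tested.

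In vehicle the cytosolic enzymes were the more abundant class, with a median over genes of 28.8 FPKM against 6.71 for the mitochondrial enzymes, each gene taken at its median over 6 libraries. The top of the order was nevertheless a mitochondrial gene, IARS2, the isoleucine enzyme of the organelle, at 69.7 to 116 FPKM (median 83.1). EPRS followed at a median of 70.2 FPKM and AARS, the alanine enzyme, at 65.0. CARS, the cysteine enzyme, was the lowest cytosolic gene, with a median of 6.27 FPKM, and SARS2, the mitochondrial serine enzyme, the lowest of the 36, with 0.809. Neighbours in this order overlapped in their ranges over the vehicle libraries throughout. Read support was ample for most members: the lowest count in any library was 7 reads, for SARS2, and the next lowest gene minimum was 40 reads, for PARS2, the mitochondrial proline enzyme.

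Under bortezomib the cytosolic genes were mostly higher and the mitochondrial genes mostly lower, as the plot of paired changes shows. Averaged over the 3 lines, the median difference, bortezomib minus vehicle on the log2(FPKM + 1) scale, was 0.34 for the 20 cytosolic genes, -0.32 for the 16 mitochondrial genes and -0.01 for all 12194 genes tested. Leaving out 1 library at a time, the cytosolic median ran from 0.23 (without the R2 vehicle library of the control line) to 0.55 (without the R1 vehicle library of KO1) and the mitochondrial median from -0.44 (without the R2 vehicle library of KO1) to -0.16 (without its R1 vehicle library). A gene was called when its adjusted p (limma, Benjamini-Hochberg over all 12194 genes) was under 0.05. Without a replicate term, 3 of 20 cytosolic genes were called, CARS and MARS higher and VARS lower, and 2 of 16 mitochondrial genes, IARS2 and MARS2, both lower. The background was 11.6% of all genes called, 4.85% higher and 6.76% lower.

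The replicate names turned out to pair the libraries. With the title suffix as a block, the fit took out a shift for each suffix, assumed to be common to all lines and both treatments. The bortezomib differences stayed the same and their errors changed. With this block 54.9% of all genes were called, 27% higher and 27.9% lower. Under this block, 15 cytosolic genes were called, 12 higher (AARS, CARS, GARS, HARS, IARS, MARS, NARS, RARS, SARS, TARS, WARS and YARS) and 3 lower (VARS, QARS and FARSB). Of the mitochondrial genes 10 were called, 8 lower (CARS2, IARS2, LARS2, MARS2, NARS2, TARS2, VARS2 and YARS2) and 2 higher (RARS2 and SARS2). All 36 members passed the filter on low values, a mean of at least 1 FPKM. SARS2 passed it narrowly, with a mean of 1.02 FPKM and medians of 0.809 in vehicle and 1.15 in bortezomib. It was thus tested only because of its bortezomib values, and its call as higher is not independent of the filter. The 5 cytosolic genes called in neither fit, KARS, EPRS, FARSA, DARS and LARS, had differences from 0.07 to 0.29, and the 6 such mitochondrial genes, AARS2, EARS2, FARS2, HARS2, PARS2 and WARS2, from -0.29 to 0.19. Among the genes called with the block only, RARS, the arginine enzyme, was lowest of the higher cytosolic ones at 0.25, YARS, the tyrosine enzyme, stood at 0.66, and the lower mitochondrial ones lay between -0.34 (YARS2) and -0.49 (VARS2). The cytosolic share higher under the block, 12 of 20, stands beside 27% of all genes, and the mitochondrial share lower, 8 of 16, beside 27.9%.

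The same split was present pair by pair. Across the 6 suffix-matched pairs of libraries, 13 cytosolic genes were higher in bortezomib in all 6 and 3 were lower in all 6, the latter VARS, QARS and FARSB. Among mitochondrial genes only RARS2 was higher in all 6 pairs, and CARS2, IARS2, MARS2, TARS2, VARS2 and YARS2 were lower in all 6. Over all genes tested, 24.8% were higher and 23.8% lower in 6 of 6 pairs. The 6 bortezomib libraries did not overlap the 6 vehicle libraries for CARS and MARS (higher) and for VARS, IARS2 and MARS2 (lower), against 4.35% and 5.4% of all genes.

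**Figure D1:**
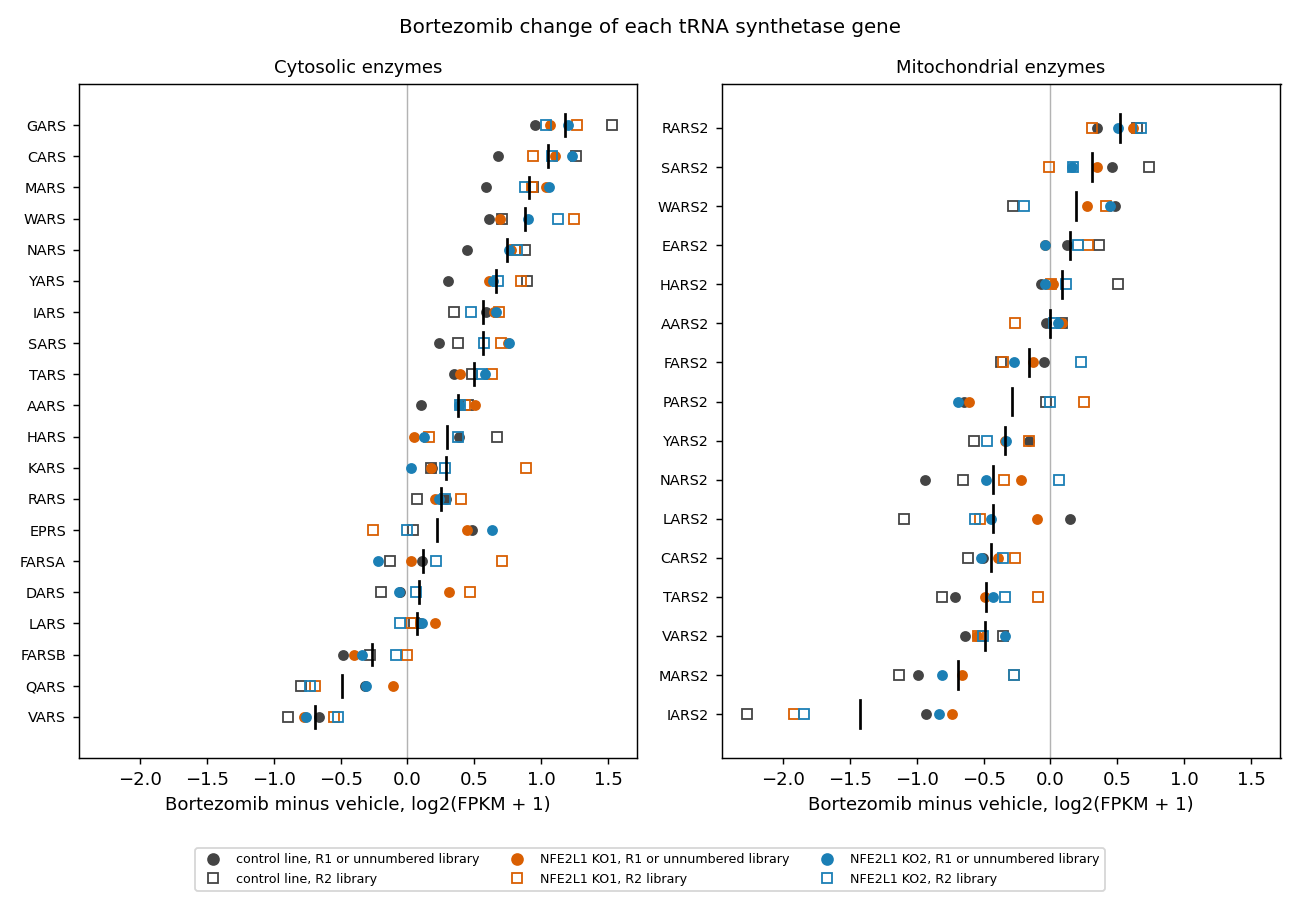
Bortezomib minus vehicle on the log2(FPKM + 1) scale for each synthetase gene, 1 symbol per suffix-matched pair of libraries (6 per gene), with a black bar at the mean of the 3 lines. Most cytosolic genes lie to the right of 0 and VARS, QARS and FARSB to the left, while most mitochondrial genes lie to the left, with IARS2 farthest at -1.42.

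Promoter windows are printed for 4 cytosolic genes that were higher in bortezomib and hold the element, and for the 2 mitochondrial genes called lower, to show where a known ATF4-type element lies in the former. The C/EBP-ATF response element, at which ATF4 binds with a C/EBP partner, has the core TGATGNAA and was searched on both strands of the RefSeq promoter windows, 250 bases before to 50 after each start (GRCh38.p14). Of the 36 genes, 30 had a window there, 16 cytosolic and 14 mitochondrial. The core was found for 7 cytosolic genes (AARS, CARS, GARS, IARS, MARS, NARS and TARS) and for 1 mitochondrial gene, YARS2. It was in 33.3% of the 21 windows of the 16 cytosolic genes and in 5.6% of the 18 windows of the 14 mitochondrial genes. Over all 35116 windows of the table the share was 3.62%. The sequences run 5′ to 3′ on the gene's own strand from 250 bases before the start to 30 after it, with the core in capitals where present.
GARS (chr7:30594628-30594907, plus strand): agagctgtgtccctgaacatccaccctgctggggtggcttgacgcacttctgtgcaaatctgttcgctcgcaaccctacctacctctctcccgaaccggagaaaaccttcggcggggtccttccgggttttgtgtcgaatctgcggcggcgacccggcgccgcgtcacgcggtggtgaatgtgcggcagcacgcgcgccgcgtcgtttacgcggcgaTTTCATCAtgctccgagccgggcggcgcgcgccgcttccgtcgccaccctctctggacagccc
CARS (chr11:3057394-3057673, minus strand): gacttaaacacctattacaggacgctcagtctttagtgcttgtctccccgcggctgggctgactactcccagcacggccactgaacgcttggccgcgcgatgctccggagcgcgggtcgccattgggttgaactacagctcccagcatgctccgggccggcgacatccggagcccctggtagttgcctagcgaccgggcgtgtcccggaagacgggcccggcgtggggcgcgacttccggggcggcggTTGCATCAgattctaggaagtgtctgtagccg
MARS (chr12:57487818-57488097, plus strand): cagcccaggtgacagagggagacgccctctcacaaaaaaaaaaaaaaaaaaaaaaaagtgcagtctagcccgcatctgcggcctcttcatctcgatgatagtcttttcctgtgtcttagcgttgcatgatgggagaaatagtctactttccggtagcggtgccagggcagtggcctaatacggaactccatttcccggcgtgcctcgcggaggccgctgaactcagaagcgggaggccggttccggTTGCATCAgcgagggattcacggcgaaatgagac
NARS (chr18:57621807-57622086, minus strand): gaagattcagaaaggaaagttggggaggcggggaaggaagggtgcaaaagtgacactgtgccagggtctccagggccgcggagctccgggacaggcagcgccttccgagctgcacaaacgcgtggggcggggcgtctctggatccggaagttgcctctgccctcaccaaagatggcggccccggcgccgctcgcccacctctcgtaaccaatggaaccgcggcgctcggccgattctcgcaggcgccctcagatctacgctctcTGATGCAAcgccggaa
IARS2 (chr1:220093882-220094161, plus strand): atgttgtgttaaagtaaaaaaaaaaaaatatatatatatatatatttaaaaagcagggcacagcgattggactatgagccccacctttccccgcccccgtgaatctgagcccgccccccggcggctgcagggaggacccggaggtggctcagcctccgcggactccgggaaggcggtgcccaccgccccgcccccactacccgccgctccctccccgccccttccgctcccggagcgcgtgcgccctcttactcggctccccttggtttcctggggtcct
MARS2 (chr2:197705119-197705398, plus strand): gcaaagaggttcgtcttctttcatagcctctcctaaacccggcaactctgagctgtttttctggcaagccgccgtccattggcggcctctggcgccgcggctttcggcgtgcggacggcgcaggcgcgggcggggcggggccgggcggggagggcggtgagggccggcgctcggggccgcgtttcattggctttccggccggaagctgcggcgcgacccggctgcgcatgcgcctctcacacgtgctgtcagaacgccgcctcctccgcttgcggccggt
The core of 8 bases began 4 bases before the start in MARS and 2 before it in CARS, so in both it ran across the start. In GARS it began 33 bases before the start and in NARS 14 bases after it, close to where transcription is annotated to begin. In AARS it began 187 bases before the start. In CARS, MARS and GARS the capitals show it on the opposite strand (TTGCATCA or TTTCATCA). The IARS2 and MARS2 windows hold no copy, which says only that these letters are not in these bases. The cyclic AMP response element TGACGTCA was in no member window (1.85% of all windows). The antioxidant response element core TGACNNNGC, the kind of site that NFE2L1 and related factors bind, was in 23.8% of cytosolic, 11.1% of mitochondrial and 13.35% of all windows. WARS, whose difference was larger than that of NARS, had no C/EBP-ATF element core in either of its 2 windows, nor had the other window of CARS and of GARS. HARS, RARS and SARS, also called higher with the block, had no core in their windows either. The cytosolic genes without a window were DARS, LARS, VARS and YARS. The 4 cytosolic windows were picked for holding the core. The 6 printed genes were picked after their values were seen, and a match is a description of sequence, not evidence of binding.

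GARS, the glycine enzyme of both compartments (chr7:30594681-30634033, GRCh38), had the largest cytosolic difference. In vehicle it read 74.5 and 20.9 FPKM in the control line, 52.1 and 23.0 FPKM in the KO1 line and 53.4 and 32.0 FPKM in the KO2 line, with the R2 library second in each; the same order is used for every gene here. In bortezomib the values were 145 and 62.4, 110 and 56.7, and 124 and 66.8 FPKM. Every bortezomib library was above its own partner, by 1.93-fold to 2.89-fold on the log2(FPKM + 1) scale, but the R2 bortezomib library of the control line lay below the unnumbered vehicle library, so those groups overlapped. The mean difference was 1.18 ± 0.42 (SE) with an adjusted p of 0.106 (limma) without the block, and the block brought it past the threshold (adjusted p = 2.42e-05).

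CARS (chr11:3000922-3057613), which charges cysteine, read 8.18 and 5.24, 5.93 and 7.10, and 5.97 and 6.57 FPKM in vehicle. In bortezomib it read 13.7 and 13.9, 13.9 and 14.5, and 15.3 and 15.0 FPKM. All 6 bortezomib libraries were above all 6 vehicle libraries, and CARS rose by 1.05 ± 0.17 (SE) log2 units (adjusted p = 0.00454, limma). With EPRS, QARS and VARS it was one of the 4 cytosolic genes that were not lower in every R2 library.

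MARS (chr12:57475445-57517569), the methionine enzyme, which also supplies initiator methionyl-tRNA, read 43.4 and 27.4, 39.8 and 29.8, and 40.0 and 34.3 FPKM in vehicle. In bortezomib it read 65.8 and 53.3, 82.5 and 57.9, and 84.4 and 64.0 FPKM, again with no overlap between treatments. MARS rose by 0.91 ± 0.24 (SE) log2 units (adjusted p = 0.0373, limma), a call that held in only 1 of 12 fits that each left out a library. Of its exonic bases, 13.3% are shared with other genes, among them DDIT3 on the opposite strand, which itself rose in bortezomib. Whether counting used strand is not given in the sources used here, so reads of MARS and DDIT3 cannot be told apart in that stretch.

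WARS (chr14:100333788-100376805), the tryptophan enzyme and a well-known interferon-induced gene, read 18.4 and 6.11, 17.7 and 5.05, and 16.0 and 6.94 FPKM in vehicle. In bortezomib it read 28.5 and 10.6, 29.3 and 13.3, and 30.8 and 16.4 FPKM, with each library above its partner and the treatments overlapping across suffixes in the control line and KO1. The difference was 0.88 ± 0.44 (SE), with an adjusted p of 0.233 without and 0.000135 with the block (limma). Of the exonic bases of WARS, 10.6% are shared with WDR25 and AL157871.4 on the opposite strand.

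NARS (chr18:57600656-57622213), the asparagine enzyme, read 57.5 and 23.1, 73.9 and 38.8, and 50.7 and 28.1 FPKM in vehicle and 78.7 and 43.5, 127 and 68.7, and 86.5 and 50.3 FPKM in bortezomib. Each bortezomib library exceeded its partner, but treatments overlapped in all 3 lines because R2 libraries were low throughout. The difference was 0.75 ± 0.36 (SE), with an adjusted p of 0.216 without and 0.000121 with the block (limma).

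VARS, the valine enzyme (chr6:31777518-31795953), which binds the translation elongation factor eEF1, went the other way. It read 23.4 and 25.9, 28.96 and 24.0, and 25.3 and 22.9 FPKM in vehicle and 14.4 and 13.5, 16.6 and 16.1, and 14.5 and 15.7 FPKM in bortezomib. No bortezomib library reached the lowest vehicle library. VARS fell by 0.69 ± 0.17 (SE) log2 units (adjusted p = 0.0311, limma), and the call held in 1 of 12 fits that each left out a library. QARS, the glutamine enzyme, and FARSB, the beta subunit of the cytosolic phenylalanine enzyme, had differences of -0.49 and -0.27 that passed with the block only (adjusted p = 0.00505 and 0.0278, limma). FARSA, the alpha subunit of the same enzyme, was at 0.12 and did not pass in either fit.

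The cytosolic gene with the smallest difference was LARS, the leucine enzyme, which also senses leucine for mTORC1 signalling. It read 22.8 and 14.6, 26.9 and 16.2, and 24.0 and 16.2 FPKM in vehicle and 24.4 and 15.1, 31.1 and 16.5, and 25.9 and 15.6 FPKM in bortezomib, a difference of 0.07 ± 0.28 (SE). KARS, the lysine enzyme of both compartments, read 45.5 and 16.7, 53.3 and 13.3, and 51.2 and 20.6 FPKM in vehicle and 51.9 and 18.9, 60.3 and 25.5, and 52.2 and 25.3 FPKM in bortezomib. It was above its partner in all 6 pairs by 1.02-fold to 1.85-fold, and its difference of 0.29 ± 0.48 (SE) did not pass in either fit (adjusted p = 0.765, and 0.0638 with the block, limma). EPRS read 65.7 and 82.2, 61.0 and 105, and 53.5 and 74.7 FPKM in vehicle and 92.2 and 84.9, 83.3 and 87.6, and 83.4 and 74.6 FPKM in bortezomib. Its pairs split by suffix, at 0.44 to 0.63 log2 units in the R1 and unnumbered pairs and at -0.26 to 0.04 in the R2 pairs.

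**Figure D2:**
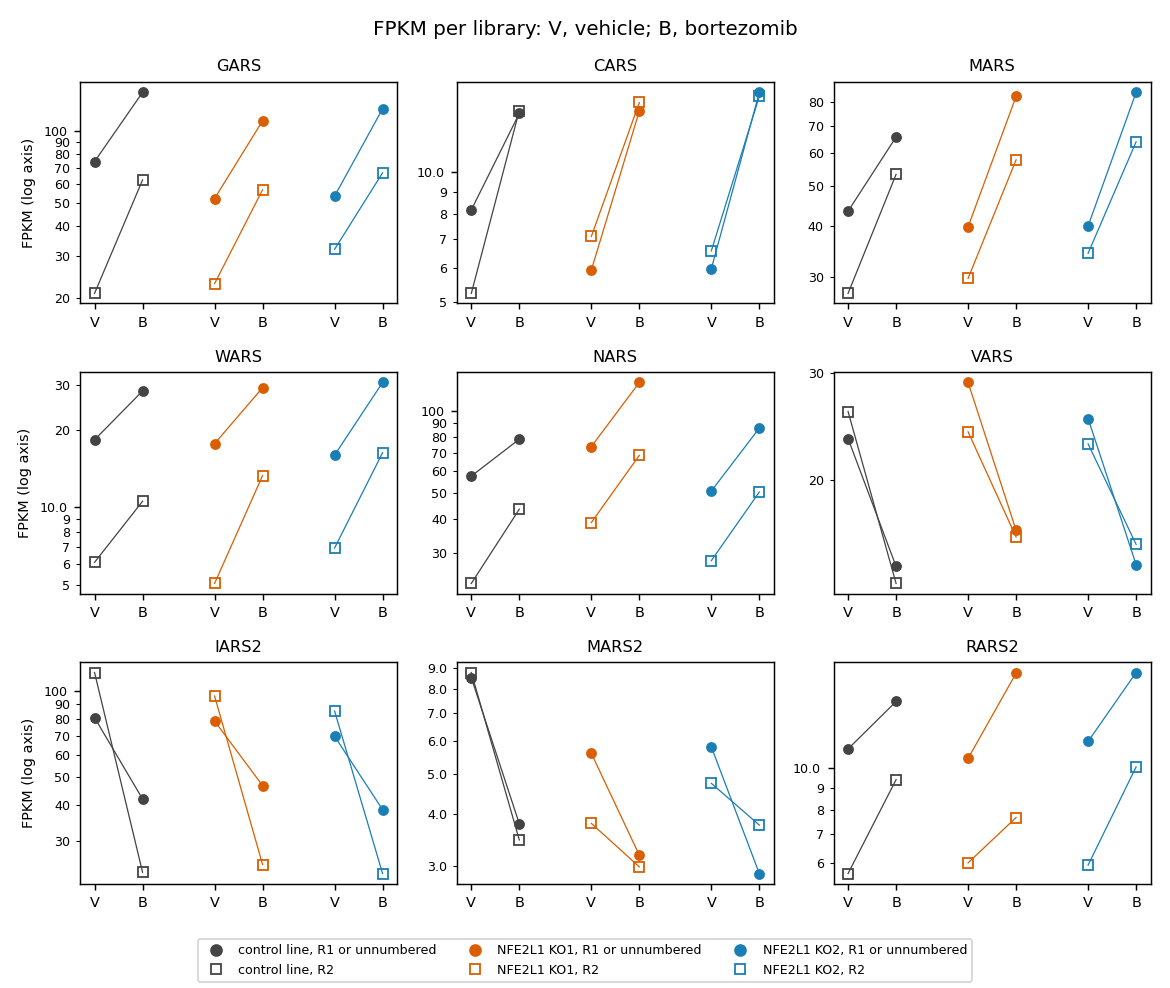
FPKM on a log axis in each of the 12 libraries for 9 synthetase genes, vehicle (V) and bortezomib (B), with lines joining libraries of the same line and suffix. CARS and MARS are higher and VARS, IARS2 and MARS2 lower in every bortezomib library than in any vehicle library, whereas GARS, WARS, NARS and RARS2 run parallel with the R2 libraries below the others.

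Among the mitochondrial enzymes IARS2 (chr1:220094102-220148041) fell most. It read 80.9 and 116, 78.8 and 96.3, and 69.7 and 85.3 FPKM in vehicle and 42.1 and 23.3, 46.9 and 24.8, and 38.6 and 23.1 FPKM in bortezomib. The treatments did not overlap, and IARS2 fell by 1.42 ± 0.28 (SE) log2 units (adjusted p = 0.0123, limma). The size differed by suffix: the R2 pairs lay between -1.84 and -2.27, the other pairs between -0.74 and -0.93. R2 libraries held more IARS2 than their partners in vehicle and less in bortezomib, in all 3 lines.

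MARS2 (chr2:197705369-197708387), the mitochondrial methionine enzyme, read 8.54 and 8.79, 5.61 and 3.80, and 5.81 and 4.75 FPKM in vehicle and 3.79 and 3.47, 3.18 and 2.98, and 2.88 and 3.76 FPKM in bortezomib. MARS2 fell by 0.69 ± 0.15 (SE) log2 units (adjusted p = 0.018, limma), with only a narrow gap between the lowest vehicle library (3.80 FPKM, KO1) and the highest bortezomib library (3.79 FPKM, control line). The call held in 7 of 12 fits that each left out a library.

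RARS2 (chr6:87514378-87590003), the mitochondrial arginine enzyme, was the one mitochondrial gene higher in every pair. It read 11.1 and 5.65, 10.6 and 5.99, and 11.6 and 5.92 FPKM in vehicle and 14.4 and 9.41, 16.8 and 7.66, and 16.8 and 10.1 FPKM in bortezomib. The treatments overlapped in each line, and the difference of 0.52 ± 0.30 (SE) passed with the block (adjusted p = 0.000804) but not without it (adjusted p = 0.306, limma). AARS2, the mitochondrial alanine enzyme, had the smallest difference of the class. Its values were 5.49 and 9.48, 5.80 and 8.79, and 5.81 and 7.25 FPKM in vehicle and 5.34 and 10.1, 6.23 and 7.15, and 6.07 and 7.41 FPKM in bortezomib, which differ by -0.01 ± 0.21 (SE).

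Because IARS2 alone makes up a large part of the mitochondrial class, the summed level was taken with and without it. The 16 genes summed to 167 to 205 FPKM in the vehicle libraries and to 97.1 to 153 in the bortezomib libraries. Without IARS2 the sums were 80.4 to 117 and 73.7 to 107 FPKM, and each bortezomib library was still below its partner. The cytosolic sum was 477 to 784 FPKM in vehicle and 591 to 1063 in bortezomib, higher than its partner in every pair. The values are shares of each library, and in bulk libraries fewer cells of a type and less RNA per cell cannot be told apart.

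Enzymes of the same amino acid were next compared between the compartments. In 14 of 17 pairings the cytosolic difference was the more positive, with a median gap of 0.50 log2 units. In 9 pairings this held in all 6 suffix pairs: HARS, AARS, WARS, TARS, YARS, NARS, CARS, MARS and IARS against their mitochondrial counterparts. The isoleucine enzymes lay 1.99 log2 units apart, the methionine enzymes 1.60 and the cysteine enzymes 1.49. The order was reversed for arginine (RARS minus RARS2, -0.27), valine (VARS minus VARS2, -0.20) and FARSB against FARS2 (-0.11), and only the valine pairing was reversed in all 6 suffix pairs. FARS2 enters against both cytosolic subunits, and EPRS against both EARS2 and PARS2, so these pairings share a gene. HARS and HARS2 lie head to head, and 15.8% of the exonic bases of HARS2 are shared with HARS or ZMAT2. For SARS2 57.0% of exonic bases are shared with other genes (MRPS12 and AC011455.2) and for VARS2 22.0% (GTF2H4).

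**Figure D3:**
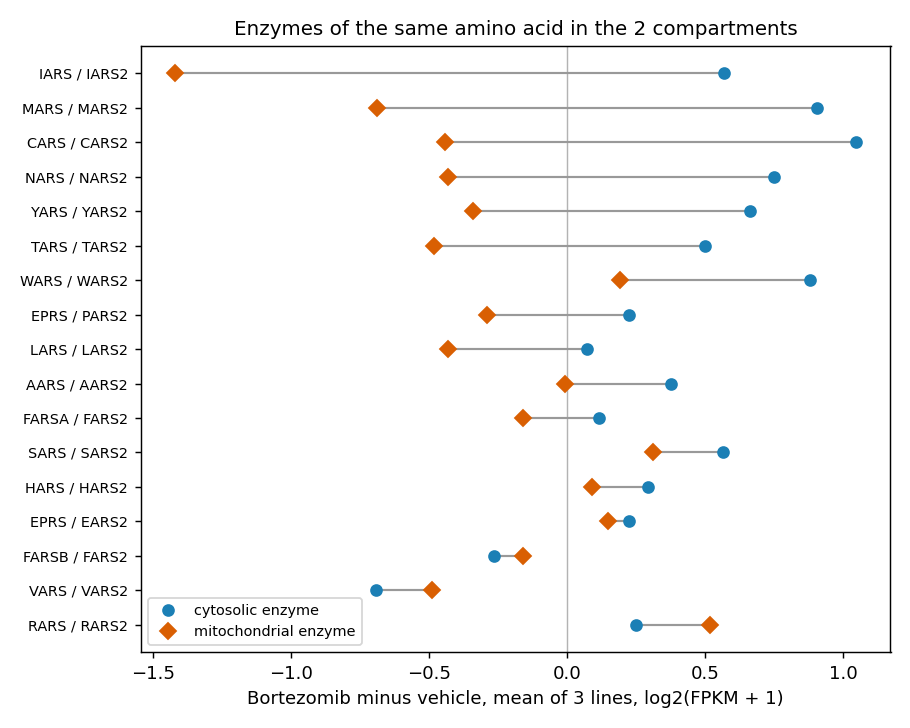
Bortezomib minus vehicle, mean of 3 lines on the log2(FPKM + 1) scale, for cytosolic (circles) and mitochondrial (diamonds) enzymes of the same amino acid, joined by a line. The cytosolic symbol lies to the right in 14 of 17 pairings, with the widest gap, 1.99, for IARS and IARS2.

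Of the 20 cytosolic synthetases, 13 are commonly listed as ATF4 targets. Of these, 3 were called without the block (CARS and MARS higher, VARS lower) and 11 with it, 10 of them higher, beside 11.6% and 54.9% of all genes called and 27% higher with the block. The same 10 genes were higher in all 6 pairs (24.8% of all genes): AARS, CARS, GARS, IARS, MARS, NARS, SARS, TARS, WARS and YARS. The list's median was 0.57, against 0.12 for the other 7 cytosolic genes and -0.01 for all genes tested. The list was chosen with earlier results of these data known, so the gap is a description and not a test. Of those other 7 none was called without the block and 4 with it, HARS and RARS higher and QARS and FARSB lower.

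Several other genes of the ATF4 response rose by more than any synthetase. ATF4 read 107 and 47.7, 95.6 and 51.2, and 99.5 and 52.0 FPKM in vehicle and 147 and 86.2, 158 and 94.7, and 151 and 102 in bortezomib, a difference of 0.74 ± 0.34 (SE) that passed only with the block (adjusted p = 0.206 without, 0.000192 with it, limma). Of 8 genes on the list of ATF4 and its other targets, 5 were called, all higher: SESN2 (3.53), DDIT3 (2.73), TRIB3 (2.57), CHAC1 (2.39) and ASNS (0.87), beside 4.85% of all genes called higher. PSAT1 (1.10), an enzyme of serine synthesis, and VLDLR (0.37), a lipoprotein receptor, passed like ATF4 only with the block, under which all 8 were called higher (27% of all genes). The first 5 encode a stress-induced brake on mTORC1, the transcription factor CHOP, a pseudokinase, an enzyme that degrades glutathione and asparagine synthetase. ASNS was at only 0.198 to 1.05 FPKM in vehicle and 0.963 to 3.05 in bortezomib, so the added pseudocount of 1 understates its change. With a mean of 1.15 FPKM and a vehicle median of 0.403, ASNS passed the filter on low values only because of its bortezomib values. Its call is therefore not independent of that filter.

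The cytosolic multisynthetase complex joins 8 of these enzymes (EPRS, IARS, LARS, MARS, QARS, RARS, KARS and DARS) to 3 scaffold proteins. Its members differed in direction: 1 of 8 was called, MARS, and with the block 4, IARS, MARS and RARS higher and QARS lower, counts close to the 11.6% and 54.9% of all genes. The median was 0.24, with a range from -0.49 to 0.91. None of the scaffold genes AIMP1, AIMP2 and EEF1E1 was called in either fit, at -0.16, 0.07 and -0.03. Of 13 further partners in tRNA charging, scaffold genes included, 12 were expressed highly enough to test and none was called without the block. With it 3 were called higher: XPOT, which exports tRNA from the nucleus (1.01), QRSL1, a subunit of the mitochondrial enzyme that makes glutaminyl-tRNA (0.69), and TARSL2, a cytosolic threonine enzyme (0.31), a share no higher than the 27% of all genes.

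By line, the medians of a class had the same sign, but each line rests on 4 libraries. The cytosolic median was 0.29 (control line), 0.49 (KO1) and 0.35 (KO2), and the mitochondrial median was -0.36, -0.25 and -0.28. Leaving out 1 library turned 2 of these signs: the control-line cytosolic median went to -0.18 without the R2 vehicle library and to -0.11 without the unnumbered bortezomib library, and the KO1 mitochondrial median went above 0 without the R1 vehicle library (0.01) or, by less, without the R2 bortezomib library. Over these fits the control-line cytosolic median ran from -0.18 to 0.81 and the KO1 one from 0.03 to 1.03. In the contrasts of each line, taken from the fit over all 12 libraries without the block, no synthetase was called in any line, where 0.467%, 0.238% and 0.32% of all genes were. With the block 9, 11 and 10 cytosolic genes were called, each time with VARS as the single lower one, beside 32.4%, 27.7% and 27% of all genes (16.1%, 13.9% and 12.7% higher, 16.4%, 13.8% and 14.4% lower). CARS, GARS, IARS, MARS, NARS, WARS and YARS were called higher under the block in each line. Of the 16 mitochondrial genes 8, 3 and 3 were called with the block, 6, 2 and 2 of them lower, with IARS2 lower and RARS2 higher in each line. In KO1 and KO2 these counts were no higher than the shares of all genes called (27.7% and 27%) and called lower (13.8% and 14.4%).

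Whether NFE2L1 shapes this response was asked through the interaction, the bortezomib difference in the mean of the knockout lines minus that in the control line. No gene of the 12194 was called by limma without or with the block (0% of all genes), while 115 and 1305 genes had an unadjusted p under 0.05. The same contrast tested on recovered reads (voom) with the block called 113 of the 12194 genes, none of them a synthetase. Among the 36 synthetases the unadjusted count was 0 without the block and 3 with it, shares no higher than those of all genes. These 3 were mitochondrial, but with unnumbered libraries as R1 in the block the count was 1 cytosolic and 2 mitochondrial. The median interaction was 0.13 for cytosolic, 0.07 for mitochondrial and 0.01 for all genes. MARS2 had the largest interaction of the 36 at 0.56 ± 0.32 (SE), and SARS the largest cytosolic one at 0.39 ± 0.71 (SE), both picked after their values were seen. With the block the errors were smaller, 0.22 for MARS2 and 0.18 for SARS, and neither passed (adjusted p = 0.399 and 0.481, limma), which does not show that the lines respond alike.

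Levels in the knockout lines were compared with the control line in each treatment. These comparisons share the control libraries with each other and the vehicle libraries with those above. In vehicle no synthetase was called without the block (background 0.344% of all genes), and the medians were -0.01 for cytosolic and -0.08 for mitochondrial genes. With the block (6.18% of all genes, 2.76% lower) DARS, the aspartate enzyme, was called lower. DARS read 22.8 and 10.7 FPKM (control line), 13.6 and 5.43 (KO1) and 17.2 and 7.66 (KO2), each R2 knockout library below the R2 control library and each R1 knockout library below the unnumbered one. Its difference was -0.60 ± 0.56 (SE) with an adjusted p of 1.0 (limma) without the block and -0.58 ± 0.14 (SE) with an adjusted p of 0.0403 with it. Without the block the value ran from -1.11 (without the R2 control library) to -0.09 (without the unnumbered control library).

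FARSB and MARS2, singled out like DARS after their values were seen, were nearest to that call. FARSB read 35.7 and 15.9 FPKM (control line), 23.5 and 8.46 (KO1) and 27.6 and 11.2 (KO2) in vehicle (block difference -0.63, adjusted p = 0.0526, limma), and its unblocked difference of -0.57 ran from -1.12 to -0.0075 when the same control libraries were left out in turn. MARS2 was at 8.54 and 8.79 FPKM in the control line and at 3.80 to 5.81 in the 4 knockout libraries, with no overlap (block difference -0.75, adjusted p = 0.0519, limma). Both passed when the unnumbered control libraries were put on the level of R1 in the block (adjusted p = 0.0248 and 0.019). Libraries titled R1 occur only in the knockout lines and unnumbered ones only in the control line, so in this contrast the block rests mainly on the R2 libraries.

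In bortezomib no synthetase was called in the knockout lines against the control line, without the block (0.164% of all genes) or with it (7.66%). In all 4 pairs of a knockout with a control library (R2 with R2, R1 with unnumbered) 9 cytosolic genes were higher (AARS, CARS, KARS, LARS, MARS, NARS, VARS, WARS and YARS) and DARS, FARSB and HARS lower, beside 29.7% and 21.6% of all genes. In vehicle LARS alone of the cytosolic genes was higher in all 4 pairs and DARS, FARSB, IARS and QARS were lower, beside 21.7% and 16.3%. Of the 16 mitochondrial genes 2 were higher and 3 lower in all 4 pairs in vehicle, and 3 higher and 1 lower in bortezomib. These counts were near or under the shares of all genes just given. EARS2 and YARS2, the glutamate and tyrosine enzymes, were higher in all 4 pairs in both treatments. IARS2, MARS2 and NARS2, the asparagine enzyme, were lower in all 4 in vehicle. In bortezomib NARS2 was higher and SARS2 lower in all 4. The epithelial keratins differed between the same lines: KRT8 was 1.36 and KRT18 1.16 log2 units higher in the knockout lines in vehicle with the block (adjusted p = 0.00358 and 0.00792, limma), and their part in the synthetase differences was not tested.

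**Figure D4:**
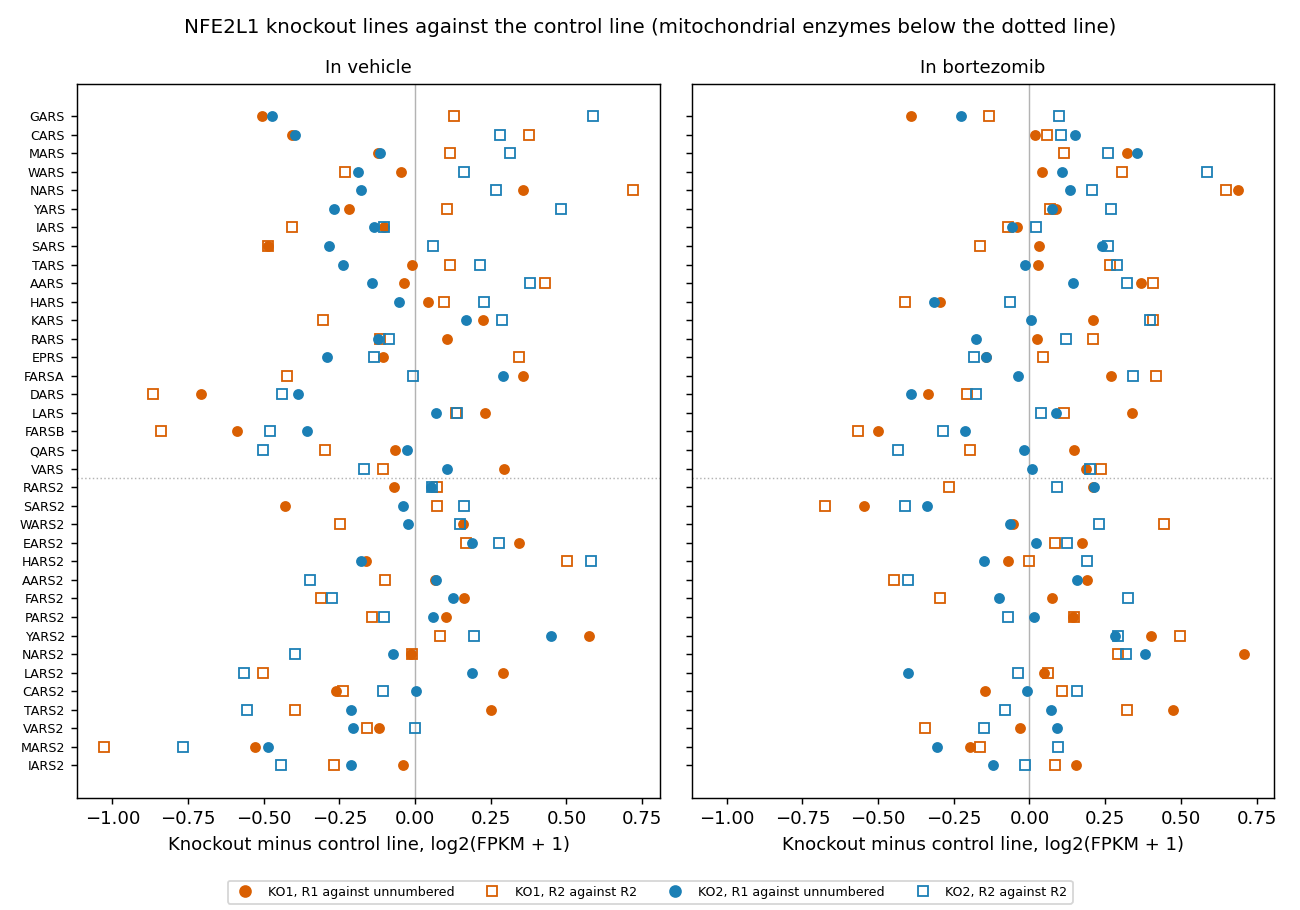
Knockout minus control on the log2(FPKM + 1) scale for each synthetase in vehicle (left) and bortezomib (right), 4 pairs per gene (R2 with R2, R1 with unnumbered), orange for KO1 and blue for KO2. In vehicle DARS, FARSB and MARS2 lie left of 0 in all 4 pairs, and in bortezomib 9 cytosolic genes lie right of 0 in all 4.

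The gene patterns most like that of GARS were sought over the 12 libraries after the mean of each suffix level was removed. The closest of all genes tested were DNTTIP2 (Pearson r = 0.987), ULBP1 (0.982) and NECAB2 (0.979). Within the synthetases CARS (0.967), YARS (0.965) and MARS (0.939) followed GARS most closely, and VARS (-0.963) and IARS2 (-0.917) ran most nearly opposite. These values describe 12 libraries that share lines and treatment.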

How the data were processed

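RNA sequencing values of 12 libraries were used as deposited. The authors deposited FPKM for 58676 genes with gene positions and lengths; the submitters' processing notes list CASAVA, STAR 2.5, HTSeq 0.6.1, DESeq2 and build hg19, while 95.2% of the deposited gene positions are those of GENCODE release 29 on GRCh38 (33 of the 36 synthetases), so coordinates are printed as GRCh38. The strand setting is not given in the sources used here. The depth of each library was fitted as the scale at which FPKM multiplied by gene length gave whole reads. At the fitted depth 100% of values were whole within 0.01.

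Groups came from the labels' titles and genotypes. The test was limma 3.58.1 (R 4.3.3) on log2(FPKM + 1) with a mean-variance trend, 1 mean per group and no replicate term, over the 12194 genes (20.8%) with a mean of at least 1 FPKM, adjusted by Benjamini-Hochberg over all of them and called under 0.05. The per-library values were given for the 6 cytosolic and 3 mitochondrial genes with the largest bortezomib difference, the smallest of each class, GARS, KARS and EPRS, and any gene called in a knockout contrast. The members and the gene lists were chosen with earlier results of these data known.

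Pairing by title suffix was checked first: the R2-minus-partner difference correlated across genes between every pair of groups (r of 0.696 to 0.890 over 15 pairs), so the replicate numbers were taken to pair the libraries, as a property of the data that the labels do not explain, and the fit with the block is given beside the main one. Alternatives were a pseudocount of 0.1, no filter, FPKM rescaled to a common sum, genes of the mitochondrial genome left out, voom on reads recovered from FPKM, alone or with the block, a second block, and leaving out each library. Scripts were tested on simulated data, in which 200 of 12194 genes were given a 2-fold bortezomib change. For the mean of 3 lines, the main fit without a replicate term found 0 of these 200. Once the suffix was added to the model, 191 were found, and 12 genes were called wrongly. The lack of a call in the main fit therefore does not show that a gene was unchanged. The simulated data held far fewer changed genes than were called in the real data, 1415 without and 6690 with the block. Recovery was not split by FPKM level or by synthetase class, and the alternative codings of the block were not compared. The counts of 0 and 191 therefore do not give a recovery rate for the synthetases, least of all for those at low FPKM.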

Additional observations from a re-analysis of the deposited data

How the results depend on the processing

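The calls for CARS and IARS2 held in all 8 alternatives that kept every library and in all 12 fits that left one out; MARS and VARS were called in 7 of 8 and 1 of 12, MARS2 in 7 of 8 and 7 of 12. The replicate block raised the counts of calls, and every gene called without it was called with it (1415 of 1415 for bortezomib over the 3 lines). In what follows the values are given in the order block by title suffix, block with unnumbered libraries as R1, and voom with the block. For the mean of 3 lines the genes called were 6690, 6689 and 7078, the cytosolic members 15, 15 and 16, and the mitochondrial members 10, 10 and 11. For the control line they were 3952, 3968 and 4624 genes, 9, 9 and 11 cytosolic and 8, 8 and 8 mitochondrial. For KO1 they were 3378, 3403 and 4019 genes, 11, 11 and 12 cytosolic and 3, 3 and 3 mitochondrial. For KO2 they were 3297, 3291 and 3950 genes, 10, 10 and 11 cytosolic and 3, 5 and 5 mitochondrial. For knockout against control in vehicle they were 754, 1001 and 1259 genes, 1, 2 and 2 cytosolic and 0, 1 and 1 mitochondrial; in bortezomib they were 934, 1550 and 1517 genes, with 1 cytosolic member under voom with the block only. For the interaction voom with the block called 113 genes. Rescaling FPKM to a common sum left 1 cytosolic and 1 mitochondrial member for the mean of 3 lines, and 14, 13 and 13 genes in the control line, KO1 and KO2 and 13 in the knockout lines in bortezomib; AARS2 changed sign there, to 0.00374. Without the filter 124, 64 and 96 genes were called in the 3 lines, 97 in the knockout lines in bortezomib and 7 in the interaction; with genes of the mitochondrial genome left out 114, 49 and 83 genes were called in the lines. The cause of these shifts was not tested.

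Leaving out 1 library at a time, the mean of 3 lines gave 693 to 1162 genes, 1 to 3 cytosolic members and 1 to 2 mitochondrial members. Only the fit without the unnumbered control vehicle library kept 3 cytosolic members; leaving out any of the other 11 libraries left CARS alone. The single lines gave 4 to 30 (control), 5 to 26 (KO1) and 5 to 34 (KO2) genes, and knockout against control 2 to 22 in vehicle and 1 to 19 in bortezomib. The bortezomib difference changed sign in 8 members: AARS2 ran from -0.14 to 0.13, LARS from -0.075 to 0.22, KARS from -0.032 to 0.61, DARS from -0.11 to 0.29, FARSA from -0.14 to 0.38, FARS2 from -0.42 to 0.10, HARS2 from -0.04 to 0.22 and WARS2 from -0.03 to 0.41. The interaction of SARS ranged from -0.11 to 0.89. Read depth limits SARS2 most, at 7 to 148 reads per library.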
